A study of Homo sapiens with 6 samples.

Results

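Gap junctions and tight junctions are the contacts through which epithelial cells exchange small molecules and seal the space between them. Connexins assemble into channels that join the cytoplasm of neighboring cells, claudins and occludin form the strands of the tight junction, and the scaffold protein ZO-1 ties these strands to the actin cytoskeleton. In the urothelium, the epithelium that lines the bladder, claudins are part of the barrier against urine. The 8 genes described here encode 3 connexins (GJA1, GJB2 and GJB5), 3 claudins (CLDN1, CLDN4 and CLDN7), occludin (OCLN) and ZO-1 (TJP1). They were picked by symbol, and each of the 8 was found once among the 16390 genes listed in every library. The genes were proposed with earlier results of the comparison of RC48 with Control known, so their fold changes and adjusted p-values are given as a description and support nothing beyond it.

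SW780 is an established line of human bladder cancer cells, counted in the study among luminal lines. RC48 couples an antibody against ERBB2 to monomethyl auristatin E, a drug that blocks microtubules. Messenger RNA was measured by RNA sequencing in 3 libraries of stable SW780 that had received RC48 (25 µg/ml) and in 3 libraries of the corresponding Control cells. The exposure time of these libraries is not given in the sources used here, and nothing says whether the 3 libraries of a group came from separate cultures. The p-values therefore measure only the spread between these libraries, which may be technical, and they come from 1 cell line.

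Estimated counts per library summed to between 16453233 and 17988030. The RC48 libraries differed more from each other than the Control libraries did. The chi-square divided by its degrees of freedom, for which sampling noise alone gives about 1, lay between 1.5 and 12.1 for pairs of Control libraries and between 23.2 and 140.5 for pairs of RC48 libraries. In RC48 replicate 1 and replicate 3, the log2 ratio to the Control mean followed the GC content of the transcript, with Spearman's rho of 0.74 and 0.57 across 13018 genes, whereas rho was −0.012 in replicate 2. Genes are not independent replicates, and no p-value is attached to these correlations. For this reason, each of the 8 genes is given with its transcript GC content and with its value after a correction for GC content, and RC48 replicate 1, which stood furthest apart, was also left out. Among markers of the cell line, the 5 epithelial genes were present in all libraries, with a summed level of 6441 to 7360 CPM (counts scaled to a common library size by TMM) in Control and 6849 to 7860 CPM after RC48 exposure. EPCAM, 1 of these, was below Control in each RC48 library (148.5 to 105.8 CPM) and was not called (adjusted p = 0.199 in edgeR). Summed markers of the luminal type, 4 of 4 listed, were 541 to 551 CPM in Control and 498 to 555 CPM with RC48. KRT20, the lowest of the 4, was called lower (1.98 to 0.667 CPM, adjusted p = 0.0489 in edgeR). FOXA1 was below Control in each RC48 library and was not called (147.1 to 108.5 CPM, adjusted p = 0.194 in edgeR). GATA3 (234.8 to 251.9 CPM, adjusted p = 0.668) and PPARG (161.7 to 162.0 CPM, adjusted p = 0.984) overlapped between the groups and were not called in edgeR. Markers of the basal type, also 4 of 4 listed, summed to 333 to 352 and 310 to 343 CPM. CD44 made up most of this sum, at a mean of 329.6 CPM in Control and 311.0 CPM with RC48. KRT14 was above Control in each RC48 library and was not called (3.22 to 5.18 CPM, adjusted p = 0.233 in edgeR). KRT5 (6.09 to 8.34 CPM, adjusted p = 0.307) and KRT6A (3.90 to 3.45 CPM, adjusted p = 0.688) overlapped between the groups and were not called in edgeR. Leukocyte markers, 5 of 6 listed, were 17.7 to 18.4 and 19.4 to 37.8 CPM. CD68 made up most of this sum, at a mean of 16.8 CPM in Control and 24.2 CPM with RC48. CD68, CD3E (16 and 51 summed counts) and CD14 (18 and 49) were above Control in each RC48 library. They were not called (adjusted p = 0.274, 0.113 and 0.161 in edgeR). LYZ (26 and 30 summed counts) overlapped between the groups, and PTPRC had 0 counts in Control and 2 with RC48. Fibroblast markers, 5 of 6 listed, were 444 to 475 and 445 to 558 CPM. Their main parts moved apart, COL3A1 from 280.5 to 411.6 CPM and LUM from 167.6 to 92.2 CPM, and neither was called (adjusted p = 0.0843 and 0.0688 in edgeR). Endothelial markers, 4 of 5 listed, were 27.9 to 29.7 and 18.4 to 24.9 CPM. Their part in the results was not tested. ERBB2, the target of RC48, had a mean of 204.9 CPM (SD 3.05) in Control and 228.8 CPM (SD 46.3) in RC48-exposed cells, with a log2 fold change of 0.16 (adjusted p = 0.519 in edgeR) that turned to −0.12 with the correction for GC content.

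Levels were compared between genes per length, in TPM, which is scaled for gene length and library size. In Control, CLDN4 was the most abundant of the 8 transcripts, at 497 ± 18.2 TPM (mean ± SD over the 3 libraries of a group, as in what follows), followed by CLDN1 at 405 ± 19.9 TPM and CLDN7 at 217 ± 4.85 TPM. The connexins GJB5 (106 ± 2.93 TPM) and GJB2 (66.5 ± 3.14 TPM) came next, and TJP1 (20.6 ± 3.74 TPM), OCLN (14.3 ± 0.30 TPM) and GJA1 (8.97 ± 0.772 TPM) were the lowest. No neighbors in this order overlapped in their Control values, and the highest mean was 55.4 times the lowest. The same order was found in 5 of the 6 libraries. The exception was RC48 replicate 2, in which CLDN1 (480 TPM) was beside CLDN4 (477 TPM). The TPM of that library was calculated from its counts, and this difference is too small for such calculated values to settle the order.

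**Figure D1:**
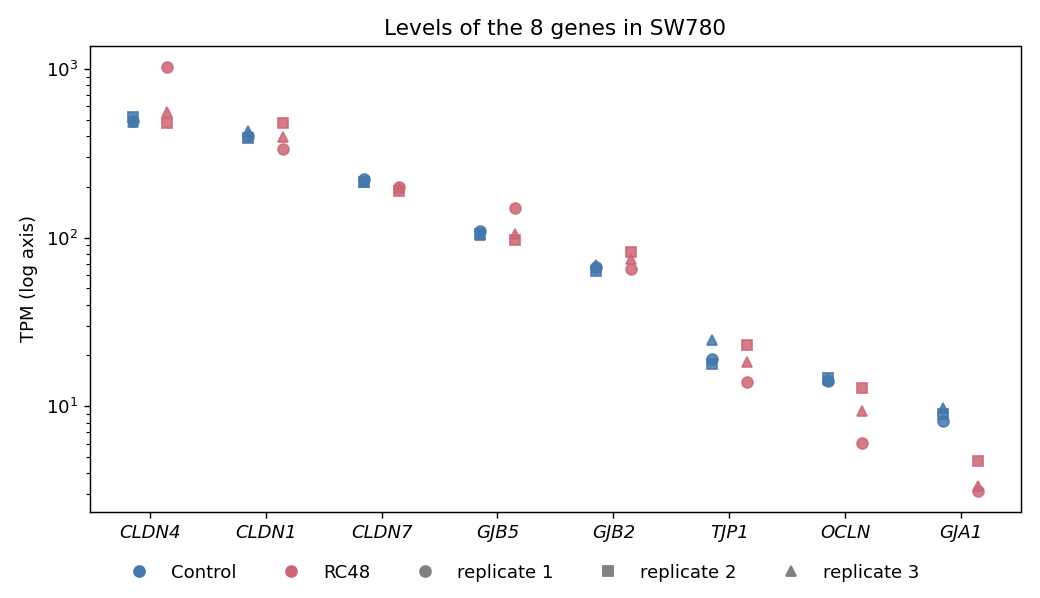
TPM on a log axis of the 8 genes in each library, ordered by their mean in Control. Blue marks Control, red marks RC48, and the shape gives the replicate. The means fall from 497 TPM for CLDN4 to 8.97 TPM for GJA1 in Control, and CLDN4 is highest in RC48 replicate 1 (1025 TPM).

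The 3 claudins accounted for nearly all claudin mRNA of these cells. Of 24 claudins searched for, 20 were listed, and 6 of these had at most 3 counts in every library. CLDN1, CLDN4 and CLDN7 together held 94.0% ± 0.249 of the summed claudin TPM in Control and 94.9% ± 1.56 after RC48 exposure. CLDN4 alone held 41.8% ± 1.57 in Control. After exposure, its share was 63.4% in RC48 replicate 1, 38.8% in replicate 2 and 45.8% in replicate 3, so that only 1 library stood far above the Control share.

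The connexins were divided more evenly. Of 20 connexins searched for, 16 were listed. GJB5 held 21.3% ± 0.991 and GJB2 13.3% ± 0.356 of the summed connexin TPM in Control. The share of GJA1 was 1.80% ± 0.130 in Control and 0.673% ± 0.238 after RC48 exposure. In single libraries it was 1.65%, 1.85% and 1.89% in Control and 0.459%, 0.93% and 0.63% with RC48, without overlap.

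GJA1 encodes connexin 43, the most widely expressed connexin of the body. It lies at chr6:121435646-121449727 (hg38) and is NCBI gene 2697. Its mRNA was 13.3, 14.7 and 14.4 CPM in Control replicates 1, 2 and 3 and 5.65, 7.42 and 5.62 CPM in RC48 replicates 1, 2 and 3. Every RC48 library was below every Control library, and the gap between the groups was wider than the spread within either of them. The mean fell from 14.1 ± 0.749 to 6.23 ± 1.03 CPM, which is 2.27-fold lower. The log2 fold change was −1.18 with a standard error of 0.17 and a 95% interval from −1.57 to −0.79 (adjusted p = 0.0128 by the quasi-likelihood method of edgeR, with p-values adjusted after Benjamini and Hochberg over all genes). A gene with an adjusted p under 0.05 is called changed here. The estimate rests on a sum of 729 counts in Control and of 324 in RC48. The exact two-sided permutation test on log2 CPM gave p = 0.1, which this number of libraries cannot go below. In bulk RNA, fewer cells expressing a gene and less RNA of it per cell cannot be told apart.

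The GC content of the GJA1 transcript was 40.6%. At this GC content, the trend of all genes was −0.80 on the log2 scale in RC48 replicate 1, 0.022 in replicate 2 and −0.31 in replicate 3. The log2 ratio of GJA1 to its Control mean was −1.31, −0.92 and −1.31 in the same libraries, below the trend in each of them. After correction for GC content it was −0.83 on the log2 scale (standard error 0.15, 95% interval −1.17 to −0.50, adjusted p = 0.0133 in edgeR). In the fit without correction, the log2 fold change was −1.12 when RC48 replicate 1 was left out (adjusted p = 0.000562 in edgeR). Omission of Control replicate 1, 2 or 3 or of RC48 replicate 3 from that fit ended the call. Adjusted p-values were 0.0806, 0.0997, 0.104 and 0.0980 in edgeR, and log2 fold changes ran from −1.23 to −1.13. Over all genes, 0.537%, 0.591%, 0.515% and 0.706% were called in these fits, beside 2.21% with all libraries.

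The promoter of GJA1 is shown because it is the only gene of the 8 that passed the threshold. The RefSeq window (GRCh38.p14, plus strand, chr6:121435396-121435695) runs from 250 bases before to 50 bases after the start of the gene. Capitals mark the letters TGANTCA, which are of the kind bound by AP-1 transcription factors and read the same on both strands.
GJA1 promoter: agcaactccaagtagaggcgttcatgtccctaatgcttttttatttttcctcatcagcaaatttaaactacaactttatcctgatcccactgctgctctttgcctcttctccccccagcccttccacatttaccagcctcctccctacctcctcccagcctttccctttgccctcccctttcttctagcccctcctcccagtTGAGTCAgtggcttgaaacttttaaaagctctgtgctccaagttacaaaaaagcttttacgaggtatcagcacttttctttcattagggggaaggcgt
The first base of the match lies at −48 relative to the start. The window has a GC content of 47% and 3 CpG dinucleotides.

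GJB2 encodes connexin 26, a channel protein of many epithelia (NCBI gene 2706, chr13:20187470-20192938, hg38). It was the only connexin of the 3 with higher values in every RC48 library. Its level was 78.0, 73.2 and 73.2 CPM in Control and 84.7, 91.9 and 88.5 CPM with RC48, in the order of the replicate numbers. The groups did not overlap, but the distance between the highest Control library and the lowest RC48 library was small against their levels. The means were 74.8 ± 2.76 and 88.4 ± 3.58 CPM. A log2 fold change of 0.24 with a standard error of 0.11 was not called (95% interval −0.016 to 0.50, adjusted p = 0.274 in edgeR). The exact two-sided permutation test gave p = 0.1.

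The trend at the GC content of GJB2 (45.3%) ran the other way in 2 of the libraries. It was −0.36, 0.042 and −0.12 on the log2 scale in RC48 replicates 1, 2 and 3, while the ratio of GJB2 to its Control mean was 0.18, 0.30 and 0.24. The gene thus lay above the trend in each library. With the correction for GC content, its log2 fold change was 0.39 (standard error 0.09, 95% interval 0.17 to 0.60) with an adjusted p of 0.0439 in edgeR. The adjusted p was 0.0754 in edgeR when a term for the replicate number was added to this correction. In the fit without correction, leaving out RC48 replicate 1 gave a log2 fold change of 0.26 (adjusted p = 0.147 in edgeR).

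GJB5 encodes a connexin of stratified epithelia (NCBI gene 2709, chr1:34755047-34758512, hg38). It had 66.4, 64.5 and 57.4 CPM in Control and 105.9, 57.0 and 66.7 CPM with RC48. Replicate 1 was the only RC48 library clearly above Control, and the groups overlapped. The means were 62.8 ± 4.78 and 76.5 ± 25.9 CPM. The log2 fold change was 0.29 with a standard error of 0.23 and was not called (95% interval −0.24 to 0.82, adjusted p = 0.434 in edgeR). Without RC48 replicate 1 it was −0.03, and with the correction for GC content it was 0.03. The GC content of GJB5 is 56.8%, at which the trend of replicate 1 was 0.46.

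**Figure D2:**
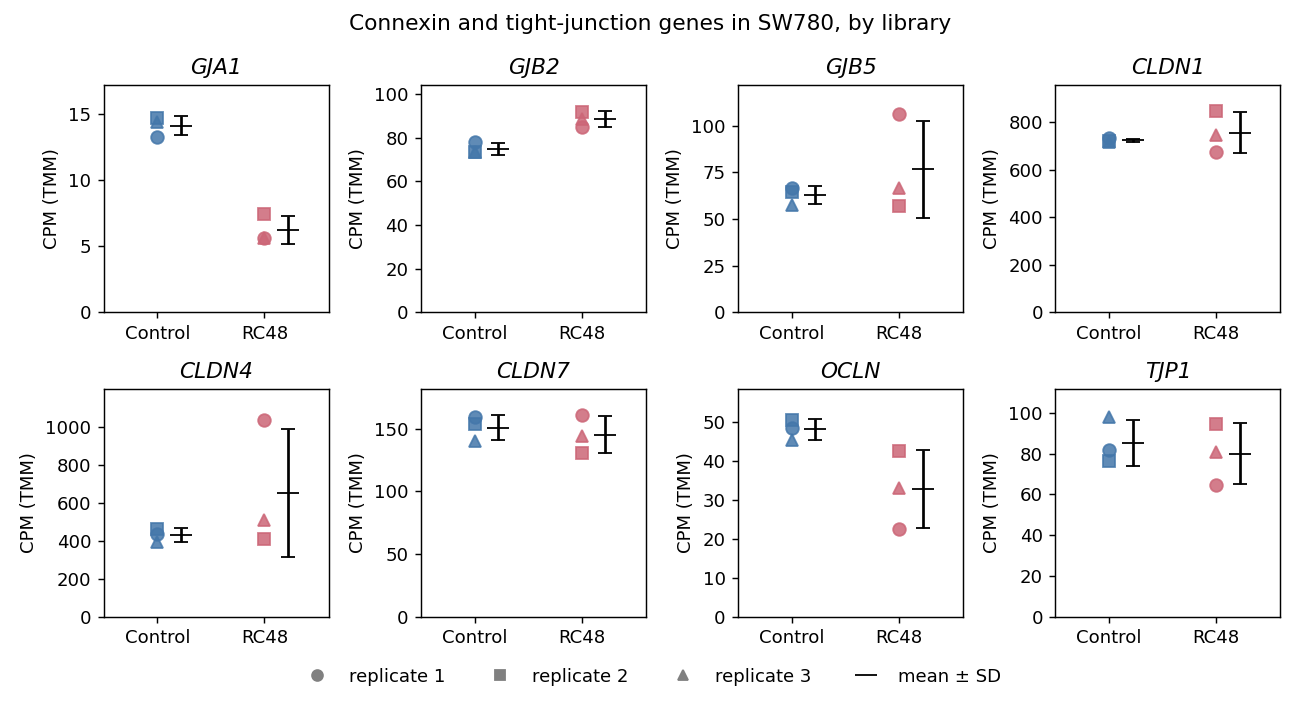
CPM (TMM scaled, linear axes from 0) of the 8 genes in each library. Symbols give the replicate, and bars show the mean ± SD of 3 libraries. GJA1 and OCLN are below and GJB2 above all Control libraries in the 3 RC48 libraries, while the other genes overlap between the groups. RC48 replicate 1 is high for CLDN4 (1034 CPM) and GJB5 (105.9 CPM).

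CLDN4, a claudin of many tight epithelia, showed the widest spread of the 8 genes after RC48 exposure (NCBI gene 1364, chr7:73830996-73832690, hg38). It had 434.6, 462.1 and 393.2 CPM in Control and 1034.2, 407.0 and 508.4 CPM with RC48. RC48 replicate 1 was far above every Control library, replicate 3 was moderately above Control, and replicate 2 lay within the Control range. The means were 429.9 ± 34.7 and 649.9 ± 336.7 CPM. The log2 fold change was 0.60 with a standard error of 0.32 and was not called (95% interval −0.14 to 1.34, adjusted p = 0.306 in edgeR). It depended on single libraries. Without RC48 replicate 1 the log2 fold change was 0.08 (adjusted p = 0.714), and without RC48 replicate 2 it was 0.84 (adjusted p = 0.0426), both in edgeR.

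The CLDN4 transcript has a GC content of 57.4%, for which the trend was 0.49 in RC48 replicate 1, 0.018 in replicate 2 and 0.20 in replicate 3. The log2 ratio of CLDN4 to its Control mean was 1.27, −0.076 and 0.24. Only in replicate 1 did it exceed the trend by more than 0.1, and the corrected log2 fold change, 0.29 with a standard error of 0.21, was not called (adjusted p = 0.395 in edgeR).

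The promoter of CLDN4 (RefSeq, GRCh38.p14, plus strand, chr7:73830746-73831045) is printed as the only other promoter of these genes that held TGANTCA. Capitals again mark these letters.
CLDN4 promoter: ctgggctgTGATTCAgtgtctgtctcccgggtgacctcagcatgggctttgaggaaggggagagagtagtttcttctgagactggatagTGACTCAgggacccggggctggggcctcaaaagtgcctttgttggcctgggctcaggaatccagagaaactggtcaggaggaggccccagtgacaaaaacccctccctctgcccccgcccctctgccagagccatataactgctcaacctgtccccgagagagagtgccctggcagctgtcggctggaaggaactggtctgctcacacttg
The matches begin at −242 and −161 relative to the start, and the window has a GC content of 59% and 5 CpG dinucleotides. For 7 of the 8 genes, 12 promoter windows of 300 bases were listed, since some genes have several starts, and GJB5 was without one. TGANTCA was found in 2 of the 12 windows and in 7.71% of all 35116 windows. GGGCGG, the letters of the GC box, was found on either strand in 8 of the 12 windows and in 45.0% of all windows. GJA1 is the only gene of the 7 whose window or windows held no GGGCGG. A match is a description of these letters and does not show that a factor binds there.

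CLDN1, which encodes a claudin required for the barrier of the skin, was the gene of the 8 with the highest CPM in Control (NCBI gene 9076, chr3:190305707-190322446, hg38). Its values were 731.0, 718.4 and 718.3 CPM in Control and 674.7, 845.0 and 744.9 CPM with RC48. Replicate 1 was below, replicate 2 above and replicate 3 just above the Control libraries. The means were 722.6 ± 7.33 and 754.9 ± 85.6 CPM, and the log2 fold change of 0.06 had a 95% interval from −0.21 to 0.34 (standard error 0.12, adjusted p = 0.737 in edgeR). With the correction for GC content (42.9% for this transcript), the log2 fold change was 0.33 with a standard error of 0.10 and was not called (adjusted p = 0.0793 in edgeR). In the fit without correction the direction was not stable, since the log2 fold change was −0.03 without RC48 replicate 2.

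CLDN7, another claudin of epithelial cells, had 158.8, 153.4 and 140.1 CPM in Control and 160.5, 130.6 and 144.2 CPM with RC48 (NCBI gene 1366, chr17:7259903-7263213, hg38). The groups overlapped on this scale. The means were 150.8 ± 9.65 and 145.1 ± 14.95 CPM. The log2 fold change was −0.06 (standard error 0.12, 95% interval −0.34 to 0.23, adjusted p = 0.778 in edgeR). On the TPM scale, its levels were 222.3, 214.2 and 213.7 in Control and 198.7, 190.0 and 195.7 with RC48, the value of RC48 replicate 2 again being computed. All RC48 libraries were therefore below Control in TPM but not in CPM. The corrected log2 fold change at a GC content of 59.1% was −0.31 (standard error 0.09, 95% interval −0.52 to −0.10), and it was not called either (adjusted p = 0.0800 in edgeR).

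OCLN, the gene of the tight-junction strand protein occludin, was lower in each RC48 library (NCBI gene 100506658, chr5:69492547-69558104, hg38). It had 48.4, 50.5 and 45.2 CPM in Control and 22.5, 42.5 and 33.0 CPM with RC48. The groups did not overlap, although RC48 replicate 2 was close to the lowest Control library. The means were 48.0 ± 2.64 and 32.6 ± 10.01 CPM. The log2 fold change was −0.56 with a standard error of 0.22, a 95% interval from −1.07 to −0.042 and an adjusted p of 0.244 in edgeR, so that the gene was not called. The exact two-sided permutation test gave p = 0.1.

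The transcript of OCLN has a GC content of 41.4%, close to that of GJA1. The ratio to the Control mean was −1.09, −0.17 and −0.54 on the log2 scale in RC48 replicates 1, 2 and 3, against a trend of −0.74, 0.016 and −0.28. OCLN was thus below the trend in each library, by 0.35, 0.19 and 0.26 on the log2 scale. Corrected for GC content, its log2 fold change was −0.27 (standard error 0.09, 95% interval −0.47 to −0.059, adjusted p = 0.117 in edgeR). In the fit without correction, where it was −0.56 with all libraries, 2 omissions are given. The log2 fold change was −0.36 without RC48 replicate 1 (adjusted p = 0.121) and −0.79 without RC48 replicate 2 (adjusted p = 0.0258), both in edgeR.

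TJP1, the gene of ZO-1, had 81.8, 76.4 and 98.0 CPM in Control and 64.6, 94.6 and 80.8 CPM with RC48 (NCBI gene 7082, chr15:29699367-29969049, hg38). The libraries of both groups were interleaved, and RC48 replicate 1 was the lowest. The means were 85.4 ± 11.2 and 79.97 ± 15.02 CPM. The log2 fold change of −0.09 (standard error 0.17, 95% interval −0.50 to 0.31, adjusted p = 0.731 in edgeR) became 0.16 with the correction for GC content, which is 43.0% for this transcript (95% interval −0.065 to 0.38, adjusted p = 0.335 in edgeR).

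**Figure D3:**
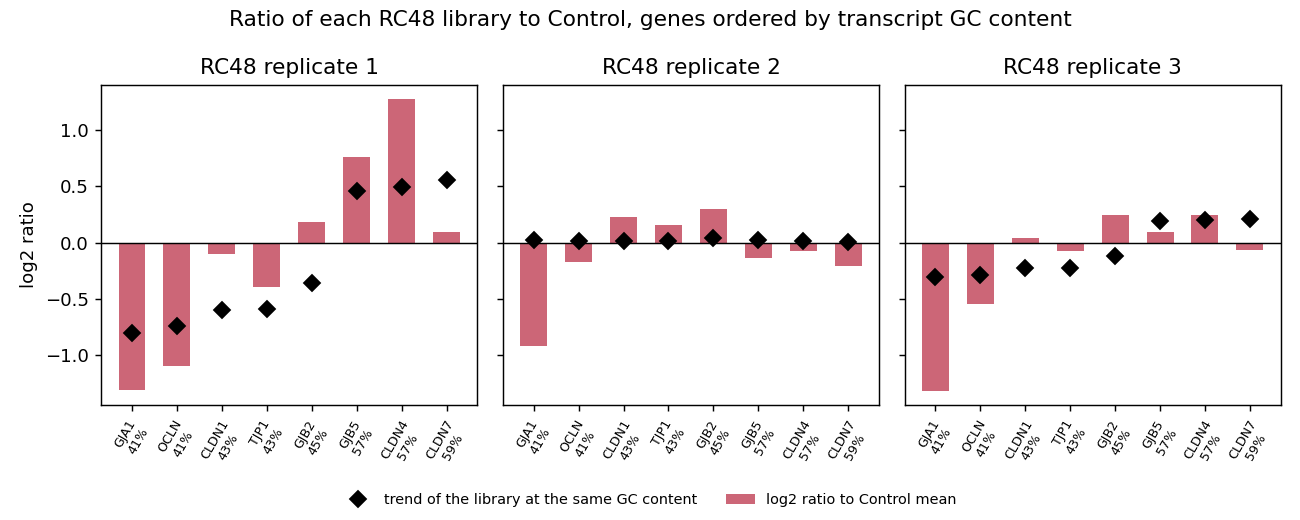
Log2 ratio of single RC48 libraries to their Control mean (bars) for the 8 genes, ordered by the GC content of the transcript, with the trend of the same library at that GC content (diamonds). GJA1, OCLN and CLDN7 lie below the diamond in all 3 libraries, and GJB2, CLDN1 and TJP1 lie above it in all 3. GJB5 and CLDN4 lie above it in some libraries and below it in others.

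In all, 1 of the 8 genes was called, GJA1, which was lower after RC48 exposure. Over all genes, 288 of 13055 tested were called (2.21%), 258 of them higher (1.98%) and 30 lower (0.23%). Since the 8 genes were proposed with this contrast known, nothing is read from their count. An unadjusted p under 0.05 was found for GJA1 and OCLN, which makes 2 of the 8 (25%) beside 19.1% of all genes tested. Without overlap between the groups were 3 of the 8 (GJB2 above, GJA1 and OCLN below), beside 31.5% of all genes tested. The median log2 fold change was 0.0037 over the 8 genes and 0.016 over all genes. With the correction for GC content, 2 of the 8 were called, GJB2 higher and GJA1 lower, beside 7.23% of 13018 genes (604 or 4.64% higher and 337 or 2.59% lower). The split between higher and lower calls over all genes moved from 258 and 30 to 604 and 337 under this correction. In the fit without correction, 1 of the 8 was called when RC48 replicate 1 was left out, beside 6.82% of all genes. When RC48 replicate 2 was left out, 3 of the 8 were called beside 28.3%. Limma on log2(TPM+1) over the 5 libraries with deposited TPM, which lack RC48 replicate 2, called 2 of the 8, GJA1 and OCLN. The share over all genes was 21.6%. Over all 6 libraries, limma called 1 of the 8, GJA1, beside 1.56% of all genes (adjusted p = 0.267 for OCLN).

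**Figure D4:**
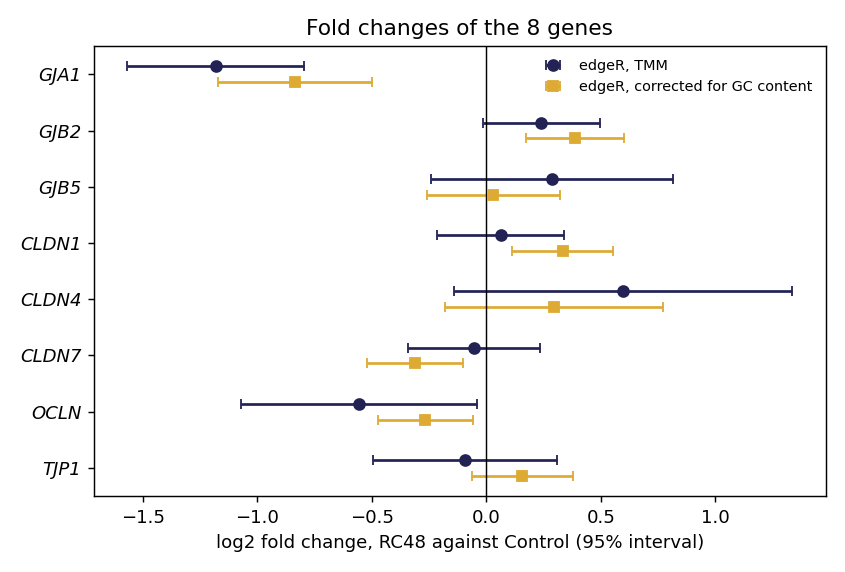
Log2 fold change of the 8 genes, RC48 against Control, with 95% intervals from edgeR with TMM (circles) and after the correction for GC content (squares). The intervals of GJA1 and OCLN exclude 0 before and after the correction, those of GJB2, CLDN1 and CLDN7 only after it, and those of GJB5, CLDN4 and TJP1 in neither fit. These intervals are not adjusted for the number of genes.

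The other genes of these junctions were taken from lists of connexins and pannexins, claudins, other membrane proteins of the tight junction, its scaffold and polarity proteins, desmosome proteins, and transcription factors known to act on epithelial junction genes. Without the 8 genes, 84 of 95 were listed and 63 had enough counts for the test. None of the 63 was called by edgeR, and 13 had an unadjusted p under 0.05 (20.6% beside 19.1% of all genes). Of these 13, 10 were higher and 3 lower, beside 1558 and 941 of all genes. DESeq2 tested 66 of the listed genes and called 1, CLDN9 (log2 fold change 1.00, adjusted p = 0.0482), beside 4.93% of all genes. Of the 63, 20 did not overlap between the groups (14 above and 6 below), which is 31.7% beside 31.5% of all genes (17.4% above and 14.1% below). Their median log2 fold change was 0.0028.

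Among connexins and pannexins, GJA1 included, 13 were tested, 0 were called higher and 1 lower, which is 7.69% beside 2.21% of all genes. Of the 13, 8 did not overlap between the groups, which is 61.5% beside 31.5% of all genes. An unadjusted p under 0.05 in edgeR was found for 7 of the 13 (53.8%, 4 higher and 3 lower) beside 19.1% of all genes. These shares include GJA1, GJB2 and GJB5, which were proposed with the contrast known. Without them, 0 of 10 were called and 6 of 10 (60%) did not overlap, 4 above and 2 below. An unadjusted p under 0.05 was found for 6 of these 10 (60%). These shares were not tested. GJA5, the gene of connexin 40, summed to 62 counts in Control and 29 in RC48, with a log2 fold change of −1.10 (adjusted p = 0.101 in edgeR). GJA5, which was singled out after its values were seen, had a log2 fold change of −1.13 with the correction for GC content (adjusted p = 0.0401 in edgeR). GJD3, singled out in the same way, had 0.55 (adjusted p = 0.0479).

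None of the 10 claudins tested was called, nor any of 11 other tight-junction membrane proteins, 17 scaffold and polarity proteins, 10 desmosome proteins or 10 transcription factors. An unadjusted p under 0.05 was found for 1 (10%), 3 (27.3%, OCLN among them), 1 (5.88%), 1 (10%) and 2 (20%), in that order. The share over all genes was 19.1%. LSR, a protein of tricellular junctions, was the most abundant of the other membrane proteins in Control by TPM and was highest in RC48 replicate 1. It had 182.7, 186.0 and 160.9 CPM in Control and 365.4, 201.7 and 244.9 CPM with RC48 (log2 fold change 0.62, adjusted p = 0.206 in edgeR), and its log2 fold change was 0.28 with the correction for GC content (adjusted p = 0.0998). PERP, a desmosome membrane protein, was 845.0 ± 44.1 and 762.5 ± 201.9 CPM (log2 fold change −0.15, adjusted p = 0.616 in edgeR), and its log2 fold change turned to 0.16 with the correction for GC content.

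Among the transcription factors, KLF5, which acts in epithelial growth, was the most abundant in Control by TPM, at 354.8 ± 6.75 CPM in Control and 241.8 ± 64.4 CPM in RC48-exposed cells. KLF5 was below Control in each RC48 library and was not called (log2 fold change −0.55, adjusted p = 0.194 in edgeR, and −0.49 with the correction for GC content). With the correction for GC content, 4 of the 63 genes were called, namely GJD3, CLDN9 and SNAI2 (higher) and GJA5 (lower), beside 7.23% of all genes. SNAI2, a repressor of epithelial genes that was named after its values were seen, had the lowest adjusted p of the 4 (log2 fold change 0.83, adjusted p = 0.0019 in edgeR). In the fit without correction its adjusted p was 0.140 in edgeR.

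**Figure D5:**
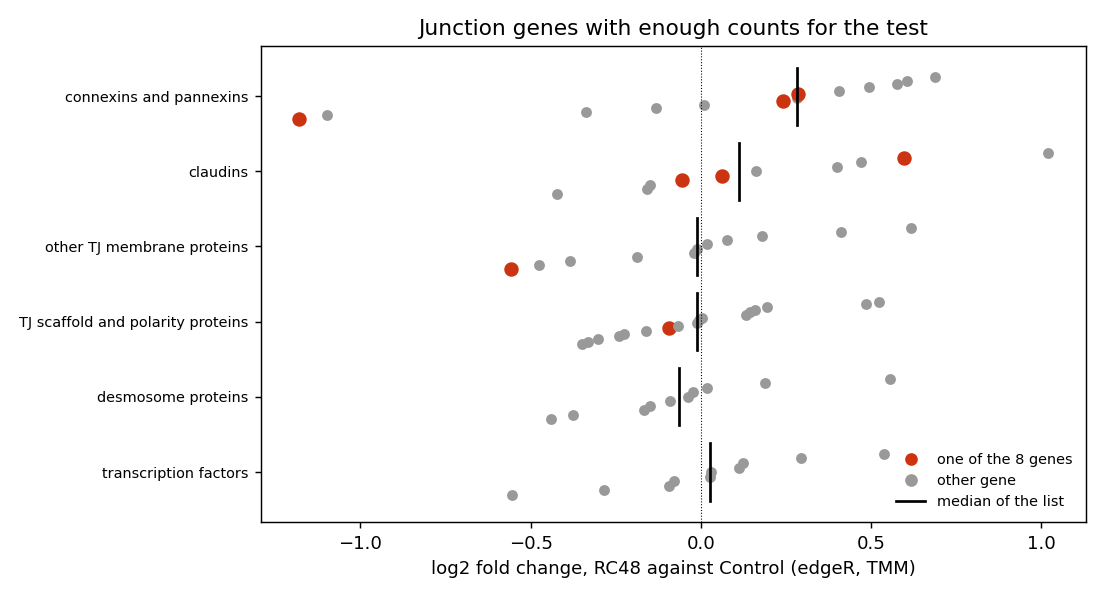
Log2 fold change (edgeR, TMM), RC48 against Control, of every tested gene in the 6 lists. Red points are the 8 genes, gray points the others, and black lines the median of each list. GJA1 (−1.18) and GJA5 (−1.10) are the lowest points of the connexin list, whose median is 0.28.

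For each of the 8 genes, the nearest 2 expression patterns were sought as the smallest root mean square difference of mean-centered log2 CPM over the 6 libraries, among 9995 genes with a mean of at least 10 CPM. Patterns like that of GJA1 were the least close. The nearest genes to GJA1 were CLCA2 (difference 0.122) and PEG10 (0.130). Their log2 fold changes were −1.37 and −0.96 (adjusted p = 0.00487 and 0.0229 in edgeR). Both were picked for a pattern like that of GJA1 in these same libraries, so their fall is no separate result. For OCLN, the nearest genes were RSL24D1 (0.0387) and MASTL (0.0412). CLDN4 was nearest to KLHL22 (0.0263) and SLC25A6 (0.0299), and C16orf91 (0.0285) was among the nearest of GJB5. For GJB2, TRIM8 (0.0248) and DHRS7 (0.0261) came closest, for CLDN1, WDR26 (0.0226) and ALG2 (0.0259), and for CLDN7, RUSC1 (0.0172) and PSRC1 (0.0273). The pattern of TJP1 was closest to that of DSP (0.0257), the gene of the desmosome protein desmoplakin, and EPB41L2 (0.0280). This is a likeness over 6 libraries of 2 groups that share the GC trend described above.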

How the data were processed

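Total RNA from 3 Control and 3 RC48 samples of SW780 was sequenced at BGI. After filtering with SOAPnuke and alignment to reference genes with Bowtie2, the authors estimated counts per gene with RSEM and deposited these estimated counts without normalization. The deposited TPM values were made by the authors from the same reads, normalized for gene length and library size. The submitters' processing notes name hg38, and the annotation and versions are not given in the sources used here. Of a library's estimated counts, 11.7% to 15.04% were not whole, but those of the 8 genes were whole in all 6 libraries. TPM of RC48 replicate 2 was calculated by dividing its counts by effective lengths taken from the remaining libraries. Where a gene had them, values with 20 or more counts and 1 or more TPM were used. Other genes took a length from any nonzero values, or else the median length. The same calculation was compared with the deposited TPM only for genes that met both limits. The median difference was 0.0098 to 0.0367 on the log2 scale in the Control libraries and RC48 replicate 3, and 0.184 in RC48 replicate 1.

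Estimated counts were rounded, filtered with filterByExpr, normalized by TMM and fitted over all genes with edgeR's quasi-likelihood test (R 4.3.3, edgeR 4.0.16) with Benjamini-Hochberg adjustment at 0.05. A gene is said to be called when it passes this threshold. The study's methods name limma on log2(TPM+1), which was an alternative (limma 3.58.1, mean TPM of at least 1), since TPM of 1 library had to be computed. GC content came from GENCODE release 29 transcripts for 16321 genes (99.6%). For the correction, log2 CPM of each library was smoothed on GC content by loess (span 0.3), and the fitted trend entered edgeR as an offset. Other alternatives were DESeq2 1.42.0, a pseudocount of 0.1 on TPM, scaling by RLE or by library size alone, a minimum of 10 counts in every library, no minimum, a term for the replicate number, and omission of each library. The exact permutation test was two-sided on log2(CPM+0.1). The members, gene lists, motifs and the GC correction were chosen with earlier results of these data known. Named are the 8 genes, called genes of the wider lists, the most abundant gene of each list by TPM in Control, the 2 nearest patterns of each of the 8 genes, and ERBB2. Some genes that this rule names are not reported here. Other named genes were chosen after their values were seen. Gene positions and promoters came from RefSeq tables of GRCh38.p14. Counting error and library number limit precision. Figures were drawn with matplotlib 3.10.9 in Python 3.11.15.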

Additional observations from a re-analysis of the deposited data

How the results depend on the processing

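Of 136 values of the 8 genes under the alternatives, 118 kept their direction and their side of the threshold. The number of the 8 genes called was 1 with edgeR and 2 with the correction for GC content. Limma on log2(TPM+1) called 2 over the 5 libraries with deposited TPM, which lack RC48 replicate 2. These were GJA1 and OCLN, both lower, beside 21.6% of all genes. Over all 6 libraries, limma called 1 of the 8, GJA1, beside 1.56% of all genes. With 1 library left out in edgeR, the number called ran from 0 to 3. It was 0 without Control replicate 1, 2 or 3 and without RC48 replicate 3. Over all genes, 0.537%, 0.591%, 0.515% and 0.706% were called in these fits, in that order, beside 2.21% with all libraries. It was 1 without RC48 replicate 1 and 3 without RC48 replicate 2, where 28.3% of all genes were called. GJA1 was called in 13 of 17 alternatives, 11 of 11 of them with all libraries or all deposited TPM, with log2 fold changes from −1.33 to −0.83. Of the other junction genes, none of 63 tested was called with edgeR and 1 of 66 with DESeq2 (4.93% of all genes). Limma called 15 of 56 over 5 libraries (21.6% of all genes) and 0 of 57 over 6 libraries (1.56% of all genes). With the correction for GC content 4 of 63 were called, and 1 of 63 with this correction and the replicate block (4.63% of all genes). Leaving out 1 library gave 0 to 21, with 1 without RC48 replicate 1 (6.82% of all genes) and 21 without RC48 replicate 2. The log2 fold change of CLDN1 changed sign to −0.15 with limma over 5 libraries, to −0.0196 with limma over 6 libraries at a pseudocount of 1 and to −0.0197 at 0.1. That of TJP1 became 0.16 with the correction for GC content and 0.16 with the replicate block added. With 1 library left out, the log2 fold change ran from −0.0275 to 0.46 for GJB5, −0.0274 to 0.13 for CLDN1, −0.14 to 0.0129 for CLDN7 and −0.23 to 0.0312 for TJP1. GJB5 changed sign without RC48 replicate 1, CLDN1 and CLDN7 without RC48 replicate 2, and TJP1 without Control replicate 3 (0.0149) or RC48 replicate 1 (0.0312). The cause of these changes was not tested.

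Libraries of both groups share only a replicate number. The correlation of same-numbered deviations from the group means was 0.0020, −0.13 and 0.0048 over 13055 genes. With the number as a block, 331 genes were called in place of 288, 1 of the 8 genes was called (GJA1, log2 fold change −1.19, adjusted p = 0.00712 in edgeR), and none of the other 63. Median log2 fold changes of all genes were −0.11 with limma over 5 libraries and 0.016 with edgeR. At 5.62 to 14.7 CPM, GJA1 was the gene of the 8 with the fewest counts.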
